A study of Mus musculus with 6 samples.

Results

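Megakaryocyte progenitors, the marrow cells that give rise to platelets, were picked out of single-cell RNA profiles of mouse bone marrow by the transcripts they carried. A cell was a member (MkP-gated) when it held at least 2 unique molecular identifiers (UMIs, each standing for 1 captured transcript) of Pf4 and at least 1 of Itga2b. It also needed at least 1 UMI of Gp1bb, Gp9 or Gp6 and at most 1 of Mcpt8, a basophil protease. Of 32762 cells that passed the quality limits, 107 were members, a share of 0.327% (95% Wilson interval 0.27 to 0.394%, which covers counting error only). Because these counts chose the cells, the levels of the gate genes are given below as a description only.

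The cells came from bone marrow of 10-week-old BALB/c mice that had been enriched for c-Kit with magnetic beads. There were 9 mice in 3 groups of 3: non-tumor-bearing mice (NTB), mice bearing orthotopic 4T1 tumors (a mammary carcinoma line of the same strain) that received vehicle (daily i.p. DPBS), and 4T1-bearing mice that received brequinar (BRQ). NTB mice were not treated. BRQ inhibits DHODH, an enzyme of pyrimidine synthesis, and was injected i.p. daily at 10 mg/kg for 2 weeks once tumors could be measured. Each of 3 pools held 1 mouse of each group, and the mice of a pool were told apart by 3 hashtag antibodies.

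Megakaryocytes develop from hematopoietic stem cells and multipotent progenitors, share an ancestor with red cells, and are driven by the hormone thrombopoietin. As they mature they stop dividing, copy their genome repeatedly, and fill with granules that carry chemokines, clotting proteins and adhesion molecules. Their surface receptors later let platelets stick to damaged vessels: Itga2b and Itgb3 form the fibrinogen receptor, Gp1ba, Gp1bb, Gp9 and Gp5 form the receptor for von Willebrand factor, and Gp6 binds collagen. Pf4 and Ppbp are chemokines stored in platelet alpha granules.

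Pools 1, 2 and 3 gave 53, 19 and 35 members, or 0.474%, 0.198% and 0.292% of the cells that passed. Members had a median of 13840 UMIs (712 to 51798) and 4026 detected genes. The pools held 100700982 to 135564079 gene UMIs each, and pairs of pools shared 26 to 37 cell barcodes by sequence, none of them a member in both pools. A further 5 barcodes met the gate but failed the quality limits. Scrublet marked 7 of the 107 members as likely doublets, and those cells are described below.

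Pf4 ran from 2 to 2432 UMIs per member, with a median of 139. Per 10000 UMIs its median was 107.4 and its range 0.62 to 656.8, so members of the same gate differed widely in this granule chemokine. Summed over members, Pf4 stood at 147.2, 189.8 and 121.8 per 10000 UMIs in pools 1, 2 and 3. Itga2b, the integrin chain, stood at 6.77, 4.87 and 10.7, with a median of 7 UMIs per member. Gp9 was found in 84 members and Gp1bb in 69, while Gp6 was found in only 13. Gp1bb overlaps a neighbouring gene, which could affect its count.

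At the Pf4 limit, 1 member had exactly 2 Pf4 UMIs and 6 had 3 to 5. Those 6 summed to 2.13 for Vwf, 1.47 for Cavin2 and 3.43 for Plek per 10000 UMIs. S100a8, a neutrophil transcript, stood at 185.1 in them against 29.3 over all members. Just outside stood 13 cells with all other gate genes but 1 Pf4 UMI, 4 cells that lacked only Itga2b, 65 that lacked only the 3 Gp genes and 1 that had 2 or more Mcpt8 UMIs. Those 65 cells carried Vwf at 2.71, Cavin2 at 3.18 and Plek at 4.23 per 10000 UMIs, against 5.17, 5.2 and 7.98 over all members. Cells with much of the same signature therefore lay outside the gate.

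The label was checked with 21 megakaryocyte markers, of which none had been used by the gate. All 21 were detected in members, 17 of them in over 50% of the cells, and their summed level was 65.7, 57 and 79.1 per 10000 UMIs in the 3 pools. In 2297 cells gated as stem or multipotent progenitors (HSC/MPP) the sum was 5.71 to 5.76, and in 1596 erythroid-gated cells it was 5.92 to 6.07. After every cell was thinned to 3000 UMIs, Vwf, the clotting and adhesion protein, was found in 68.3% of 101 members, 1.96% of HSC/MPP-gated and 0.126% of erythroid-gated cells. Tubb1, the beta tubulin of the platelet rim, was found in only 4 members. The plot of 12 of these genes by class and pool shows the spread between pools.

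**Figure D1:**
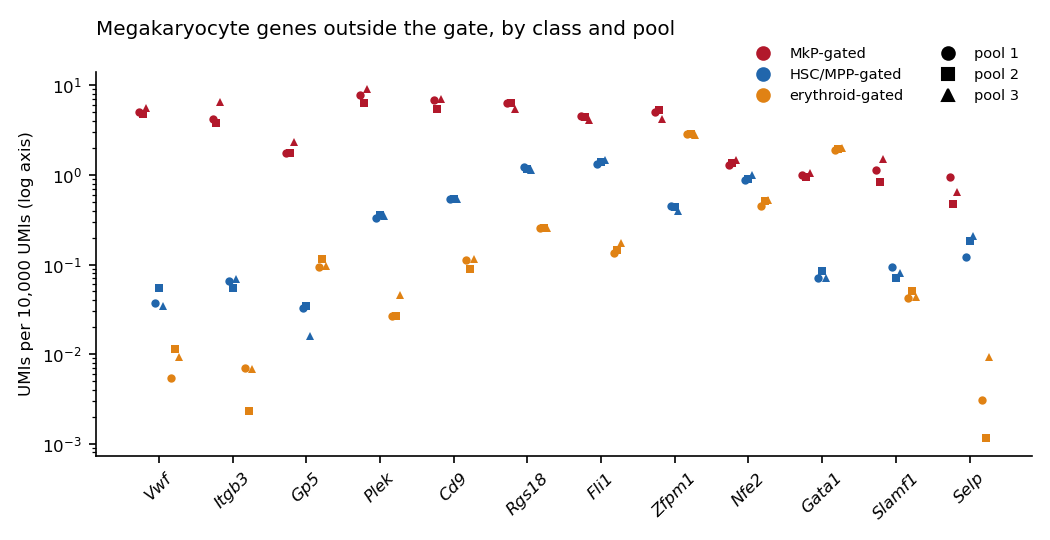
Levels of 12 megakaryocyte genes that the gate did not use, as UMIs per 10000 (log axis), in MkP-gated, HSC/MPP-gated and erythroid-gated cells of each pool. Each point is 1 class summed in 1 pool, and only genes with UMIs in all 9 sums are drawn. MkP-gated cells are highest for 11 genes, and for Gata1 the erythroid-gated cells are.

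Markers of other lineages were checked in the same sums. Erythroid markers reached 1.17, 4.32 and 0.436 per 10000 UMIs in pools 1, 2 and 3, against 31.3 to 36 in erythroid-gated cells. Neutrophil markers reached 72.5, 10.4 and 146.1, against 928.6 to 1121 in cells outside all gates. Gzmb, Ly86, Siglech, Cd209a, Ebf1, Cd3e, Ncr1, Trbc2, Col1a1 and Cdh5, from the lists of 6 other cell kinds, were at 0 UMIs in members, but other genes of those lists were not. Kdr, a VEGF receptor on the stromal and endothelial list, was in 20 members, and that list summed to 0.2, 0.0318 and 0.268 in members against 0.0129 to 0.0206 in cells outside all gates. Nkg7, on the T and NK list, was in 55 members, and that list summed to 0.763 to 1.12 in members against 5.85 to 6.38 in cells outside all gates. In members the basophil and mast cell, monocyte, dendritic, B cell and macrophage lists each summed to at most 0.285. The member at the Pf4 limit, an NTB cell of pool 2, held 57 of the 81 Hbb-bs UMIs (beta globin) and 11 of the 20 Klf1 UMIs (an erythroid transcription factor) of all members. The counts of the erythroid list are therefore also given without it.

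Among the 1381 genes at 1 or more UMIs per 10000 in members of every pool, those with the largest ratio of mean levels to all other cells that passed were Ppbp (1457-fold), Pf4 (1114-fold), Treml1 (662-fold), Mrvi1 (348.5-fold) and Cavin2 (319-fold). Treml1 is a receptor of platelet alpha granules, Mrvi1 takes part in cGMP signalling and Cavin2 in membrane caveolae. Vwf (268.5-fold), Timp3 (260.2-fold, a metalloprotease inhibitor), Rbpms2 (256.3-fold), F2rl2 (187.7-fold, a thrombin receptor) and Rab27b (180.5-fold, a granule GTPase) followed. The remaining genes of the top 20 were Ehd3, Itga2b, Gucy1a1, Itgb3, Mmrn1, Gp5, Myom1, Thbs1, Pde5a and Gp9, at 168.9 down to 62.9-fold. These ratios describe the gated cells and carry no test.

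Pf4 and Ppbp are neighbours on mouse chromosome 5 (GRCm38, plus strand): Ppbp spans 90768518 to 90770063 and Pf4 90772435 to 90773383. Although adjacent, they were detected in very different numbers of members, 107 for Pf4 (required by the gate) and 33 for Ppbp. Itga2b lies on chromosome 11 (102453297 to 102470122, minus strand), Gp6 on chromosome 7 (4363965 to 4397744, minus strand) and Gp1ba on chromosome 11 (70639122 to 70642036, plus strand).

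The 250 bases before the start of Pf4 and of 2 receptor genes are shown because GATA and ETS factors are known regulators of this gene program, and the 3 differ in which of their short motifs they hold. The sequences are from RefSeq (GRCm38.p6), written 5′ to 3′ on the gene's strand, at chr5:90772185-90772434 (plus strand) for Pf4, chr7:4397745-4397994 (minus strand) for Gp6 and chr11:70638872-70639121 (plus strand) for Gp1ba. Capitals mark a GATA motif, which is AGATAA in its commonest form, with AGATAG accepted as well, and likewise TGATAA together with its relative TGATAG. They also mark an ETS motif, which is AGGAAG in one form while CGGAAG is the other. Both strands were searched, and no GATA match shared a base with an ETS match.
Pf4: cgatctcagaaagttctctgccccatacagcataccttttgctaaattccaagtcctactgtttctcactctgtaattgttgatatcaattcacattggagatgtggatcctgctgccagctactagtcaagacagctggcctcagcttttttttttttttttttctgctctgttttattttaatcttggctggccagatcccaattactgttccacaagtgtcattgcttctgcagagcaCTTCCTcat
Gp6: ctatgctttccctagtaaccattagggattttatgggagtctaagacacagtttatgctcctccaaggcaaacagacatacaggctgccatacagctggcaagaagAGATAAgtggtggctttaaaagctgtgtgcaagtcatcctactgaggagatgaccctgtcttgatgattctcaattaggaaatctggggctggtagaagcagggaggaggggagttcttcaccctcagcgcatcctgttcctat
Gp1ba: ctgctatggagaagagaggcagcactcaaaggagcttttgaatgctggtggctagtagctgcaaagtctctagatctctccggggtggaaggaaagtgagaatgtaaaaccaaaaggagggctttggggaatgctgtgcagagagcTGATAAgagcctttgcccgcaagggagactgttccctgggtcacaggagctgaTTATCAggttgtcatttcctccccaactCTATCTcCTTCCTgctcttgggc
The Pf4 stretch held 1 ETS match and no GATA match, the Gp6 stretch 1 GATA match, and the Gp1ba stretch 3 GATA matches, 104, 51 and 23 bases before the start, and 1 ETS match. Of the 26 marker genes, 20 had a promoter in the table: 8 held a GATA match and 13 an ETS match, 5 of them both. These windows end at RefSeq's start, which for Itga2b lies inside the gene span given above. Among all 32851 promoters of this length, 26.5% held a GATA match, 39.2% an ETS match and 9.21% both. The RUNX motif TGTGGT was in 1 of the 20 (Gp9) and in 14% of all promoters. A match is a description of the letters in this window and not a binding site.

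The members were not uniform. In 11 members Ppbp was at 10 or more UMIs per 10000 (called Ppbp-high here, with a limit chosen after the values were seen), and the lowest of them had 12.2 while the highest other member had 8.36. The limit is a rate, and the shallowest of the 11 had 712 UMIs in all, so that few Ppbp UMIs were enough there. Ppbp was at 0 in 74 members. The 11 Ppbp-high cells held 93.5% of all Ppbp UMIs of members, 84.5% of Gp6, 84.2% of Alox12 (platelet 12-lipoxygenase), 89.3% of Cald1 (caldesmon, an actin-binding protein) and 100% of the 61 Myl9 UMIs (a myosin light chain). They came from pools 1, 2 and 3 as 5, 1 and 5 cells.

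**Figure D2:**
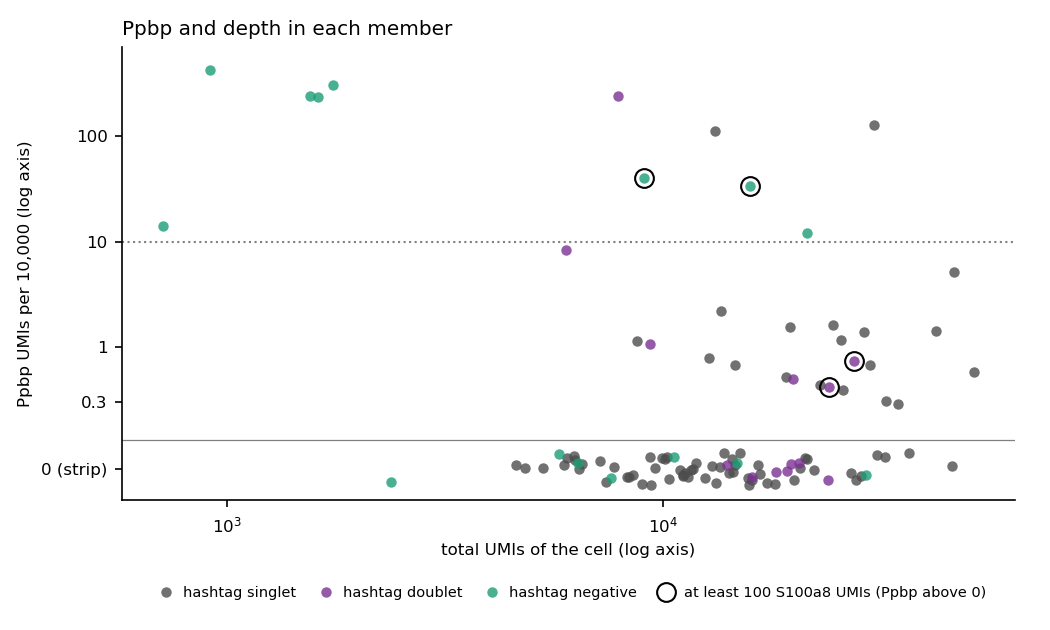
Ppbp per 10000 UMIs (log axis, with cells at 0 spread in a strip at the bottom) against the total UMIs of each of the 107 members (log axis). Color gives the hashtag call, rings mark cells with at least 100 S100a8 UMIs and Ppbp above 0, and the dotted line is at 10 per 10000. The 11 cells above the line include 5 with fewer than 2500 UMIs.

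Ppbp-high cells had shallower profiles and lower levels of ribosomal and cell cycle genes. Their median was 7885 UMIs against 14294 in the other 96 members, and 5 of the 11 had fewer than 2500 UMIs, as did 1 of the 96. Ribosomal protein transcripts had a median of 606.5 per 10000 UMIs against 2456, S phase genes 6.2 against 31.3 and G2/M genes 12.4 against 35.3. Genes of earlier progenitors were sparse in them: Gata2, a stem and early progenitor transcription factor, was found in 1 of 11 against 83 of 96, Kit, the stem cell factor receptor, in 2 of 11 against 60 of 96, and Hlf and Mecom in 0 of 11 against 36 and 33 of 96. The hashtag caller left 8 of the 11 negative and called 2 singlets, 1 in NTB mouse 1 and 1 in vehicle mouse 3. Neutrophil transcripts were also more abundant in the summed Ppbp-high cells: Elane, neutrophil elastase, stood at 47.4 per 10000 UMIs against 2.32 in the other members, and Mpo, myeloperoxidase, at 17.1 against 2.35. These sums include 2 cells that Scrublet marked and that held at least 100 UMIs of S100a8, another neutrophil transcript. The medians over cells lay closer, at 6.45 against 0.923 for Elane, 6.45 against 1.65 for Mpo and 11.4 against 5.02 for S100a9. No test was made, since Ppbp chose these cells, and the part of depth and of neutrophil RNA in these values was not tested.

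Other mature genes followed the same split. Itgb3 stood at 29.6 per 10000 UMIs in Ppbp-high cells and 3.34 in the others, Treml1 at 18.8 and 1.96, Thbs1 (thrombospondin, an alpha granule protein) at 15.4 and 1.22, and Flna (filamin, an actin crosslinker) at 17 and 1.41. Rgs18, a regulator of G protein signalling in platelets, was nearer, at 8.34 and 5.94. Fli1, an ETS factor of this lineage, was at 3.55 and 4.46 in these sums, but its medians over cells were 6.2 and 4.36. Zfpm1 (FOG1, the GATA1 partner) had the opposite order, at 1.44 and 5.02, as did Meis1, a stem and megakaryocyte factor, at 0.767 and 2.89.

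A different subset of 9 members carried at least 100 S100a8 UMIs, a neutrophil transcript, with 3 in pool 1, 0 in pool 2 and 6 in pool 3. All 7 members that Scrublet marked were among them, the hashtag caller named 4 of the 9 doublets, and 2 were also Ppbp-high. The counts and sums of the neutrophil list are therefore also given without them.

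To see how members differ from their neighbours in the marrow, counts were summed per pool and class, and MkP-gated cells were compared with HSC/MPP-gated and erythroid-gated cells. HSC/MPP-gated cells had at least 2 of Hlf, Mecom, Procr and Mllt3 and at most 1 Pf4 UMI. Erythroid-gated cells had at least 2 Klf1 UMIs, at least 1 UMI in a short set of erythroid genes that includes Car1 and Epor, and at most 1 Pf4 UMI. The genes of the gates were left out. The fit was edgeR's quasi-likelihood test with the pool as a block, and calls below have an adjusted p (Benjamini-Hochberg, over all genes tested) of less than 0.05. Members were chosen on 5 megakaryocyte genes, so the calls of the megakaryocyte lists are a description of the gated cells.

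Against HSC/MPP-gated cells, 1383 of 12339 genes (11.2%) were higher and 1550 (12.6%) lower in members. Of 21 tested platelet receptor and adhesion genes, 18 were higher and 0 lower, with a median log2 fold change of 3.03, against -0.03 over all genes. The tetraspanin Cd9 was at 6.77, 5.5 and 7.09 per 10000 UMIs in members of the 3 pools and 0.54 ± 0.00515 (SD, n = 3 pools) in HSC/MPP-gated cells, a log2 fold change of 3.52 ± 0.09 (SE). Itgb3 was higher by 6.22 ± 0.12 and Treml1 by 8.93 ± 0.22. In every pool the members' level of these 3 genes was above that of HSC/MPP-gated cells.

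Granule and secreted genes were higher for 15 of 24 and lower for 2. Ppbp was higher by 10.73 ± 0.16, Vwf by 6.93 ± 0.13, Cavin2 by 7.37 ± 0.17, Timp3 by 6.34 ± 0.22 and Tgfb1, a growth factor stored in platelets, by 1.41 ± 0.1. The 2 lower genes were F13a1, a clotting factor subunit that monocytes also make, at -2.45 ± 0.33, and Srgn, the granule proteoglycan serglycin, at -1.44 ± 0.11. Cytoskeleton and signalling genes were higher for 27 of 31, among them Rap1b, a GTPase that activates platelet integrins (3.48 ± 0.09), Plek, pleckstrin (4.45 ± 0.11), Nrgn (2.51 ± 0.12) and Fermt3, which activates integrins from inside (1.84 ± 0.09). Without the Ppbp-high cells, 18 of 21 receptor, 15 of 24 granule and 25 of 30 cytoskeleton genes were higher, and 0, 2 and 1 lower. Rap1b stood at 21, 19.8 and 17.5 per 10000 UMIs in members and 1.66 ± 0.116 in HSC/MPP-gated cells.

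Lineage transcription factors were higher for 13 of 22 and lower for 3. Mef2c, a MADS-box factor, was at 11.1, 8.62 and 9.9 per 10000 UMIs in members against 1.96 ± 0.0671 (log2 fold change 2.27 ± 0.09). Zfpm1 was higher by 3.43 ± 0.09, Fli1 by 1.6 ± 0.09 and Gata1 by 3.7 ± 0.16. The 3 lower factors were Myb, which restrains megakaryocyte fate (-2.21 ± 0.1), Hoxa9 (-2.44 ± 0.24) and Lyl1 (-1.13 ± 0.13).

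Stem and multipotent genes were split, with 5 of 16 higher and 8 lower. Since the HSC/MPP gate chose its cells on stem genes, this count is a description. The higher 5 were Angpt1 (1.6 ± 0.12), Meis1 (0.88 ± 0.1), Slamf1, the CD150 surface marker (3.78 ± 0.19), Esam (2.79 ± 0.23) and Mycn (2.24 ± 0.25). The lower 8 included Flt3, a receptor of lymphoid-primed progenitors (2 UMIs in all members, 46.8 times lower with a counting interval of 12.9 to 386.5), Sox4 (-2.46 ± 0.16), Cd34 (-2.45 ± 0.22) and Kit (-1.48 ± 0.13). Kit stood at 0.612, 0.541 and 0.621 per 10000 UMIs in members and 1.63 ± 0.14 in HSC/MPP-gated cells.

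The erythroid list gave 9 of 16 genes higher and 0 lower than in HSC/MPP-gated cells, but this count rested on 1 cell. Without the member at the Pf4 limit, 3 of 16 were higher and 0 lower. Car2, carbonic anhydrase, of which that cell held 52 of 266 UMIs, gave 0.61 ± 0.17, Gfi1b, a repressor shared by red cells and megakaryocytes, 3.05 ± 0.17, Aqp1, a water channel, 3.83 ± 0.2, and Tfrc, the transferrin receptor, 0.36 ± 0.18 (not called). Without pool 1, 2 or 3 the count was 4, 4 or 14 of 16.

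Neutrophil genes were lower for 13 of 17 and higher for 1, Retnlg, a neutrophil secreted protein (1.44 ± 0.44), which stood at 0.812, 0.0636 and 7.85 per 10000 UMIs in the 3 pools. Without the S100a8-high cells, 15 were lower and 0 higher. Elane stood at 5.61, 0.986 and 6.49 per 10000 UMIs in members and 36.1 ± 3.53 in HSC/MPP-gated cells. Basophil and mast cell genes were lower for 7 of 10 and monocyte and macrophage genes for 9 of 14, with 0 higher in both lists. The smaller lists gave 1 higher and 2 lower of 8 tested for dendritic cells, 0 and 1 of 8 for B cells, 0 and 2 of 4 for T and NK cells, and 2 and 2 of 5 for stromal and endothelial genes.

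S phase genes gave 3 higher and 4 lower of 32 (Pcna, the replication clamp, 0.03 ± 0.09), and G2/M genes 2 higher and 1 lower of 37. Pyrimidine genes gave 2 and 5 of 25, unfolded protein response genes 4 and 8 of 37, p53 targets 2 and 1 of 16 and interferon-stimulated genes 1 and 7 of 24. Dhodh, the target of BRQ, had 23 UMIs in all members and a log2 fold change of -0.29 ± 0.3. Ribosomal protein genes were lower for 55 of 77 and higher for 0, with a small median of -0.24. Cytokine and thrombopoietin signalling genes were higher for 9 and lower for 4 of 29, with the cyclins Ccnd2 (0.96 ± 0.09) and Ccnd3 (1.28 ± 0.1) and the survival gene Bcl2l1 (2.2 ± 0.25) higher and the kinase Pim1 (-1.54 ± 0.14) lower.

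Over all tested genes, the largest differences upward by the naming rule were those of Ppbp, Npy (10.19 ± 0.31), Clec1b (9.05 ± 0.29, the podoplanin receptor), Treml1, Mrvi1 (8.38 ± 0.3), Cavin2, Ache (7.02 ± 0.25), F2rl2 (7.02 ± 0.24), Vwf and Timp3. Npy, a neuropeptide, had 73.7% of its member UMIs in the Ppbp-high cells. The largest downward were St8sia4, a polysialyltransferase (-5.53 ± 0.31), Igha (-5.31 ± 0.32), Igkc (-4.71 ± 0.96), Ctsg, a neutrophil protease (-4.24 ± 0.24, and -4.39 without the S100a8-high cells), and Lgals1, galectin 1 (-4.17 ± 0.18). The immunoglobulin genes Igkc and Igha stood at 5.04 ± 1.66 and 1.18 ± 0.297 per 10000 UMIs in HSC/MPP-gated cells and 0.26 ± 0.216 and 0.0301 ± 0.00452 in members.

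**Figure D3:**
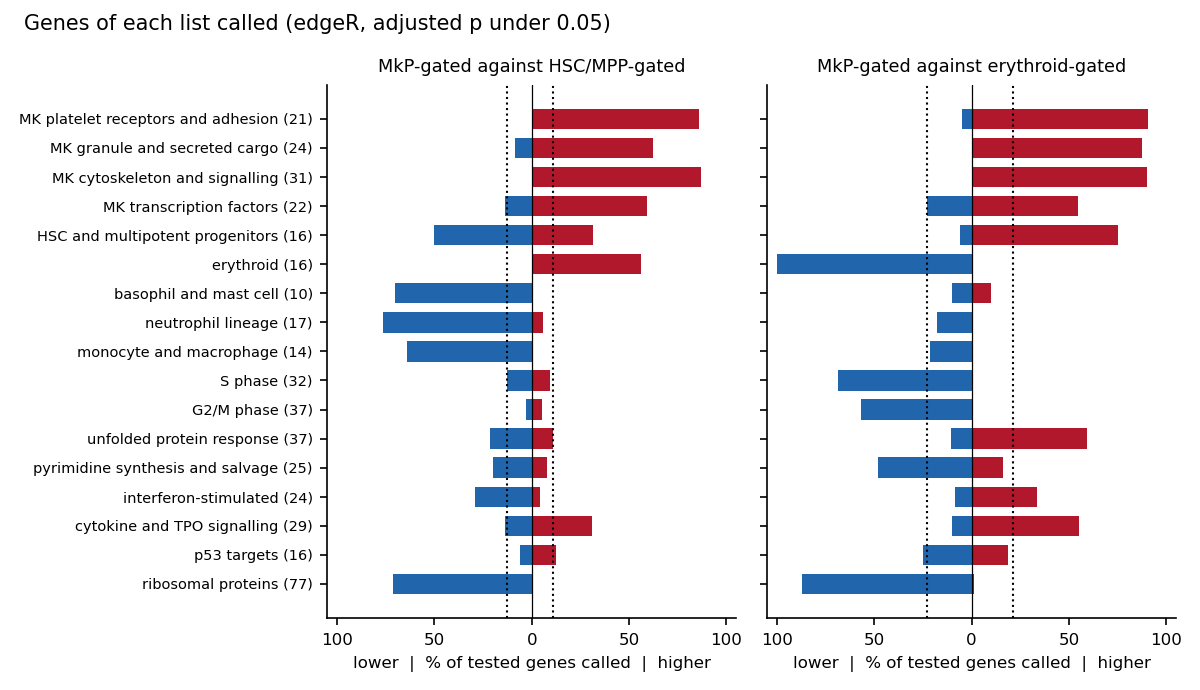
Share of the tested genes of each list called higher (to the right) or lower (to the left) in MkP-gated cells than in HSC/MPP-gated (left panel) or erythroid-gated cells (right panel). The number tested is in brackets and the dotted lines mark the share of all tested genes called in each direction. The 3 lists of megakaryocyte receptors, granules and cytoskeleton have the longest bars to the right in both panels.

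Against erythroid-gated cells, 2635 genes (21.4%) were higher and 2819 (22.8%) lower in members. Receptors were higher for 19 of 21 and lower for 1, the scavenger receptor Cd36 (0 UMIs in members, at least 3.57-fold lower), granule genes for 21 of 24 and cytoskeleton genes for 28 of 31, with 0 lower in both. All 16 erythroid genes were lower, also without the member at the Pf4 limit. Since that gate chose its cells on erythroid genes, this count is a description. Hba-a1, alpha globin, stood at 0.175, 0.127 and 0.0168 per 10000 UMIs in members and 3.55 ± 0.661 in erythroid-gated cells (log2 fold change -5.19 ± 0.26), Ermap was lower by 5.65 on the log2 scale (SE 0.29) and Rhag, an erythrocyte membrane protein, by 5.36 (SE 0.3). Without that member the log2 fold changes of Hba-a1, Ermap and Rhag were -5.52, -6.65 and -6.6.

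The factors that both lineages use separated in a graded way. Of 22 transcription factors, 12 were higher and 5 lower. Gata1 was lower than in erythroid-gated cells (-1.1 ± 0.11; 1.01, 0.954 and 1.04 per 10000 UMIs against 1.95 ± 0.035), as were Gfi1b (-0.73 ± 0.12), Tal1 (-0.37 ± 0.1), Ldb1 (-1.17 ± 0.12) and Myb (-1.39 ± 0.1). Gata2 (3.32 ± 0.13), Fli1 (4.7 ± 0.11), Mef2c (5.86 ± 0.11), Meis1 (5.98 ± 0.15) and Runx1 (1.86 ± 0.1) were higher. Zfpm1 was higher by only 0.61 ± 0.08. Lmo2, an adaptor of the same complex, gave -0.06 ± 0.09 and was not called. Stem and multipotent genes were higher for 12 of 16 and lower for 1 (Kit).

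S phase genes were lower than in erythroid-gated cells for 22 of 32 and G2/M genes for 21 of 37, with 0 higher in both. The summed S phase level was 32.3, 36.2 and 30 per 10000 UMIs in members of pools 1, 2 and 3 against 48.9, 50.3 and 53.4 in erythroid-gated cells. The summed G2/M level was 64.4, 85.7 and 39.6 against 78.1, 76 and 75.2, so that in pool 2 it was higher in members. Pcna was lower by 0.86 on the log2 scale (SE 0.09), Cenpa, the centromere histone, by 1.12 (SE 0.11) and Cad, the first enzyme of pyrimidine synthesis, by 1.14 (SE 0.14). Pyrimidine genes were lower for 12 and higher for 4 of 25, and ribosomal protein genes were lower for 67 and higher for 1 of 77, with a median of -0.33. The median UMIs per cell also differed, at 13840 in members and 19878 in erythroid-gated cells, and its part in these calls was not tested.

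Chaperones and secretory genes had the opposite order. Unfolded protein response genes were higher for 22 and lower for 4 of 37, with Hspa5 (BiP) higher by 0.78 ± 0.09, Hsp90b1 by 0.77 ± 0.08, Calr by 0.43 ± 0.08 and Fkbp11 by 3.22 ± 0.23. Cytokine signalling genes were higher for 16 and lower for 3 of 29, with Stat3 (2.33 ± 0.15) and Il6st, the gp130 receptor chain (3.15 ± 0.29), higher and Myc (-0.6 ± 0.13) lower. Interferon-stimulated genes were higher for 8 and lower for 2 of 24, with Ifitm3 at 3.61 ± 0.09. The remaining lists gave 1 higher and 1 lower of 10 basophil and mast cell genes, 0 and 3 of 17 neutrophil genes (0 and 14 without the S100a8-high cells, 2 and 8 without the Ppbp-high cells), 0 and 3 of 14 monocyte and macrophage genes, 1 and 1 of 8 dendritic cell genes, 1 and 1 of 8 B cell genes, 2 and 0 of 4 T and NK cell genes, 2 and 0 of 5 stromal and endothelial genes and 3 and 4 of 16 p53 targets.

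The largest upward differences from erythroid-gated cells fell on genes that those cells almost lacked. Slc35d3, a transporter of platelet dense granules, had 202 UMIs in members and 0 in erythroid-gated cells, at least 1315-fold higher by the 3 counts that a count of 0 allows over the class. Ppbp had 1075 and 3 UMIs (ratio 6998, counting interval 2388 to 33985), Clec1b 264 and 1 (5155, 917.3 to 204391), Gucy1a1, a nitric oxide receptor subunit, 239 and 1 (4667, 829.7 to 185108) and Npy 278 and 3 (1810, 612.8 to 8828). Cavin2 (11.43 ± 0.24), Treml1 (10.95 ± 0.26), Rbpms2 (9.95 ± 0.25) and Mmrn1, a granule protein (9.94 ± 0.3), followed. Downward, Sphk1, sphingosine kinase, had 3 UMIs in members and 4330 in erythroid-gated cells (73.9 times lower, 25.3 to 358.5), and Atp7b, a copper transporter, had 3 and 3201 (54.6 times lower, 18.7 to 265.1), followed by Ermap, Rhag and Hba-a1.

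Hashtag staining of members was strong. The caller gave 73.6%, 84.2% and 68.6% of members in pools 1, 2 and 3 to 1 mouse, against 69.9%, 51.1% and 52.5% of HSC/MPP-gated and 17.1%, 20.5% and 25.8% of erythroid-gated cells. Median hashtag UMIs per cell were 1787, 2212 and 2594 in members, 1647, 1779 and 2270 in HSC/MPP-gated and 1081, 1426 and 1719 in erythroid-gated cells. Both measures were higher in members in 3 of 3 pools in each comparison (two-sided exact sign-flip test, p = 0.25, the smallest that 3 pools allow). H2-K1, which encodes a class I protein of the kind these antibodies bind together with CD45, stood at 5.07 per 10000 UMIs in members, 5.72 in HSC/MPP-gated and 1.34 in erythroid-gated cells. H2-D1, another class I gene, stood at 6.31, 6.16 and 2.69, B2m, the class I light chain, at 9.48, 9.31 and 4.32, and Ptprc, which encodes CD45, at 0.882, 1.72 and 0.318. Over all pools members thus lay below HSC/MPP-gated cells for H2-K1 and Ptprc and slightly above them for H2-D1 and B2m. In pool 2 alone H2-D1 was lower in members, at 6.04 against 6.5.

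Of the 107 members, 79 could be given to 1 mouse. The share of members among a mouse's singlets was 0.903%, 0.459% and 0.45% in NTB mice of pools 1, 2 and 3, from 5, 6 and 11 cells. It was 0.683%, 0.262% and 0.397% in vehicle mice (19, 1 and 5 cells) and 0.583%, 0.388% and 0.341% in BRQ mice (15, 9 and 8 cells). The 3 groups overlapped, and pool 1 was highest in each. Within every pool the NTB mouse had the highest share.

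**Figure D4:**
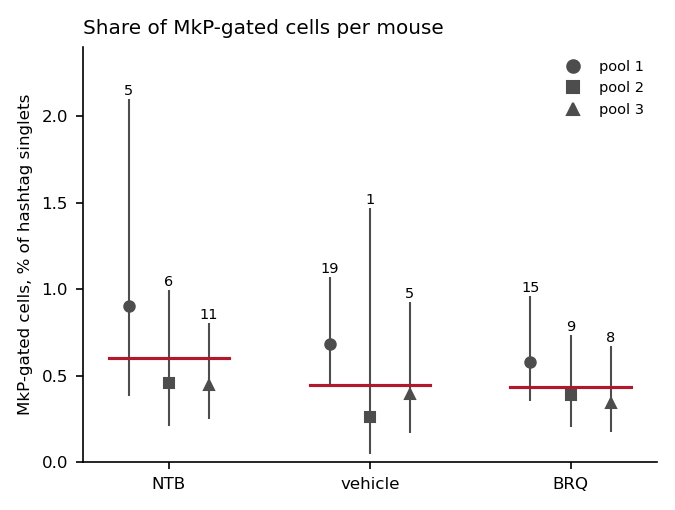
Share of MkP-gated cells among the hashtag singlets of each mouse (%), by group. Points are mice, with the number of member cells above each, vertical lines are 95% Wilson intervals and red lines are group means. The intervals of all 9 mice overlap between groups.

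The group means were 0.604% ± 0.259 for NTB, 0.447% ± 0.215 for vehicle and 0.438% ± 0.128 for BRQ (SD, n = 3 mice). The differences were -0.156 percentage points for vehicle minus NTB, -0.0097 for BRQ minus vehicle and -0.166 for BRQ minus NTB (two-sided exact permutation test, p = 0.5, 0.9 and 0.5, adjusted over the 3 comparisons 0.75, 0.9 and 0.75, smallest possible p 0.1). The sign of BRQ minus vehicle turned under several alternatives, and without vehicle replicate 1 the difference was 0.108. Without NTB replicate 1, which had 554 singlets, the 2 differences from NTB shrank to -0.00705 for vehicle and -0.0168 for BRQ. Depth differed between the groups, with median UMIs per singlet of 8212 to 9415 in NTB, 10090 to 12424 in vehicle and 10786 to 13226 in BRQ mice. After thinning to 3000 UMIs, which left 1 to 8 members per mouse, NTB mice of pools 1, 2 and 3 had shares of 0.595%, 0.172% and 0.0913%, vehicle mice 0.327%, 0.377% and 0.238%, and BRQ mice 0.222%, 0.0949% and 0.197%. BRQ minus vehicle was then -0.143 percentage points, with no overlap of these groups (two-sided exact permutation test, unadjusted p = 0.1, the smallest possible). The thinning also left out singlets with fewer than 3000 UMIs. In vehicle mice of pools 1, 2 and 3 these were 336 of 2780, 117 of 382 and 422 of 1261. In BRQ mice they were 321 of 2571, 213 of 2321 and 317 of 2343, and in NTB mice 50 of 554, 143 of 1307 and 257 of 2447. The part of this uneven loss in the shares was not tested, and the vehicle share of pool 2 rested on 1 member.

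Gene expression of members was then compared between groups on sums per mouse, with mice of at least 5 members. The vehicle mouse of pool 2, with 1 member, was left out, so that vehicle had 2 mice. No gene of 2888 was called in any of the 3 comparisons (edgeR, 0%, adjusted p under 0.05). At an unadjusted p under 0.05 there were 191 genes for vehicle against NTB, 193 for BRQ against vehicle and 96 for BRQ against NTB, and DESeq2 also called 0 in each. With no filter on low counts (13061 genes), edgeR called 44, 67 and 11. The comparisons share mice, so their values below are not independent.

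The genes with the smallest p for vehicle against NTB were Rgs10, Dhrs3, Tbxas1, Esam and Slc35d3. Rgs10, a G protein regulator of platelets, stood at 1.83, 1.14 and 1.16 per 10000 UMIs in NTB mice, 3.77 and 4.01 in vehicle mice 1 and 3 and 2.53, 1.99 and 1.13 in BRQ mice (vehicle against NTB, log2 fold change 1.63 ± 0.34 SE, edgeR adjusted p = 0.275). Both vehicle values lay above all NTB values, as did the 5.8 of the vehicle mouse left out. Esam, a junction protein of stem cells and platelets, was at 0.488, 0.0763 and 0.268 against 1.04 and 2 (2.54 ± 0.56), and Tbxas1, thromboxane synthase, at 1.46, 0.992 and 0.938 against 2.33 and 3.61 (1.5 ± 0.33). In the vehicle mouse left out, Esam was at 0.86 and Tbxas1 at 0.86, the latter below all NTB mice. Dhrs3, a retinal reductase, gave 2.23 ± 0.48 and Slc35d3 1.9 ± 0.45. None of the 5 passed the adjustment (edgeR adjusted p = 0.275 for the first 4 and 0.435 for Slc35d3).

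For BRQ against vehicle the smallest p were those of Mrvi1 (-1.94 ± 0.41), Tbxas1 (-1.48 ± 0.32), Thbs1 (-3.23 ± 0.73), Flna (-2.74 ± 0.63) and Cyba, an NADPH oxidase subunit (-2.18 ± 0.52), with edgeR adjusted p = 0.315 for each. The vehicle mouse left out had 4 Tbxas1 UMIs among 46530, a level below that of every BRQ mouse. Its levels of Mrvi1, Thbs1 and Flna were above those of every BRQ mouse. Thbs1 stood at 1.26 and 10 per 10000 UMIs in vehicle mice 1 and 3 and 0.869, 0.569 and 0.323 in BRQ mice. Of the 100 Thbs1 UMIs of vehicle mouse 3, 86 came from 1 Ppbp-high cell, as did 111 of its 115 Flna UMIs. Without vehicle replicate 1, which left mouse 3 as the only vehicle mouse, edgeR called 160 genes for BRQ against vehicle and 94 for vehicle against NTB, with this lone mouse assumed to vary like the others. Without the Ppbp-high cells (mice with at least 4 members) the log2 fold change of Thbs1 was -1.33 ± 0.43, that of Flna -0.45 ± 0.39 and that of Cyba -0.56 ± 0.39. That of Mrvi1 was then -1.18 ± 0.37, with 28 of its 36 UMIs in vehicle mouse 3 from the same cell, and that of Tbxas1 -1.17 ± 0.31.

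For BRQ against NTB the smallest p were those of Apoe, H2-K1, Ckap5, Ndufc2 and Snhg1 (edgeR adjusted p = 0.997 for each). Apoe, a lipid carrier, stood at 1.46, 0.992 and 1.47 per 10000 UMIs in NTB mice and 0.34, 0 and 0.323 in BRQ mice (-2.37 ± 0.52). H2-K1, a class I major histocompatibility gene, stood at 4.63, 3.13 and 3.35 against 6.16, 8.63 and 7.91 (1.03 ± 0.26). Both genes were named for their small p, and neither passed the adjustment. In vehicle mice 1, 2 and 3 Apoe was at 1.18, 0 and 0.601 and H2-K1 at 4.27, 3.65 and 5.71. Ckap5, a microtubule polymerase, gave 1.41 ± 0.38, Ndufc2, a respiratory chain subunit, -0.99 ± 0.27 and Snhg1, a small nucleolar RNA host, -0.93 ± 0.29.

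By list, platelet receptor genes had positive log2 fold changes for 20 of 20 in vehicle against NTB (median 1.33, against -0.02 over all genes), for 1 of 20 in BRQ against vehicle (median -1.56) and for 5 of 20 in BRQ against NTB (median -0.24). The summed level of the 22 list genes outside the gate was 43.9, 13.1 and 15.8 per 10000 UMIs in NTB mice, 27.2, 49.9 and 89.7 in vehicle mice and 22.4, 20.2 and 19.5 in BRQ mice. Removal of 1 Ppbp-high cell from NTB mouse 1 and 1 from vehicle mouse 3 took their sums to 20.8 and 26.8. The medians over the 13 genes then tested were 0.945, -0.467 and 0.862, with 13, 2 and 10 of the 13 positive. The fitted list includes 4 genes of the gate, so its counts and medians are a description. For vehicle against NTB these gave 1.86 (Itga2b), 1.34 (Gp9), 1.34 (Gp6) and 0.79 (Gp1bb). The part of the gate in these values was not tested.

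**Figure D5:**
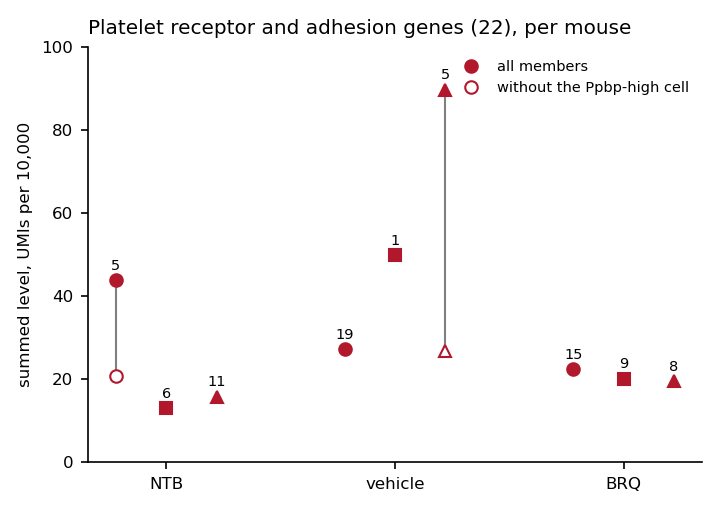
Summed level of 22 platelet receptor and adhesion genes outside the gate in the members of each mouse, as UMIs per 10000, by group. Filled points are all members, open points are the same mouse without its Ppbp-high cell, and the number of members stands above each. Vehicle mouse 3 is at 89.7 with and 26.8 without 1 cell.

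No gene of the other lists was called either. Neutrophil genes summed to 170.5 per 10000 UMIs in NTB mouse 3 and 126.7 in BRQ mouse 3, against 10.3 to 18.3 in the other 7 mice. Without the S100a8-high cells these were 17.1 and 54.1. G2/M genes had negative log2 fold changes for 22 of 26 in vehicle against NTB and positive ones for 25 of 26 in BRQ against vehicle (medians -0.38 and 0.62). Their sum was 49, 66.8 and 53 per 10000 UMIs in NTB mice, 68.3, 76.3 and 7.01 in vehicle mice and 68, 103.2 and 41.2 in BRQ mice. Vehicle mice 1 and 2 thus lay above all 3 NTB mice, and the low value was that of vehicle mouse 3, with 5 members. With every mouse that had a member in the fit, 11 of 22 G2/M genes were positive for vehicle against NTB (median -0.00404) and 18 of 22 for BRQ against vehicle (median 0.4). Pyrimidine genes, of which 9 passed the filter, had medians of -0.32, 0.07 and -0.22 in the 3 comparisons, ribosomal protein genes 0.1, -0.14 and -0.04 and unfolded protein response genes -6.28e-05, -0.25 and -0.3.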

How the data were processed

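Bone marrow cells of 9 mice were profiled in 3 pools (10x Genomics 3' chemistry), each with a hashtag library. The deposited values are UMI counts per gene or hashtag and cell barcode, which the authors made with Cell Ranger 6.0.0 on mm10 and analysed with Seurat, per the submitters' processing notes. No normalization had been applied, and 39488 barcodes were listed.

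Cells with 500 to 7500 detected genes and at most 15% mitochondrial UMIs were kept. The study words its limits as transcripts, which was read here as detected genes. Members were chosen by the UMI limits given above. Cells in both the HSC/MPP and the erythroid gate were left out of both. Mice were assigned per pool with HTODemux (Seurat 5.3.0, quantile 0.99), and doublets were marked, not removed, with Scrublet (scanpy 1.11.5). Levels are UMIs per 10000 UMIs of summed counts. The members and gene lists were chosen with earlier results of these data known.

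Counts were summed per pool and class, or per mouse with at least 5 members, and fitted with edgeR 4.0.16 (TMM, quasi-likelihood, filterByExpr, Benjamini-Hochberg adjusted p, R 4.3.3), which was tested on simulated data. The fit of classes had the pool as a block, and that of groups had none. Each pool joined 1 mouse of each group: deviations of 7 pairs of mice of the same pool correlated with a median r of 0.112 (-0.307 to 0.26), and of 14 pairs of different pools with -0.0411. DESeq2 1.42.0 was an alternative. Shares were compared with exact permutation over mice and given Wilson 95% intervals (scipy 1.17.1).

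For each class comparison the rule named the top 10 calls upward and the top 5 downward by log2 fold change, at a mean CPM of at least 50 and with no overlap over pools. Between groups with no calls it named the 5 genes with the smallest p, and against all other cells the 20 largest ratios among genes at 1 or more UMIs per 10000 in every pool. List examples were to be the most abundant. Other genes, those in the Ppbp-high account included, were chosen after their values were seen. Gene positions are from GENCODE annotation of GRCm38 and promoters from RefSeq (GRCm38.p6). Intervals and limits from a count of 0 cover counting error only. Some genes that the naming rule or the gates held are not reported here.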

Additional observations from a re-analysis of the deposited data

How the results depend on the processing

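None of the differences in share per mouse kept its direction under all alternatives. In the main setting the vehicle and the BRQ mouse lay below the NTB mouse in each of the 3 pools. BRQ minus vehicle turned positive with mice called by tag ratios (0.124 percentage points), with the limits read as UMIs (0.0514) and without Ppbp-high cells (0.0167, chosen after seeing the data). BRQ minus NTB turned positive by tag ratios (0.0145), and vehicle minus NTB after thinning to 3000 UMIs (0.0282). That thinning, which left out singlets with fewer than 3000 UMIs, made BRQ minus vehicle more negative (-0.143). Leaving out 1 mouse at a time gave -0.275 to -0.00705 for vehicle minus NTB, -0.102 to 0.108 for BRQ minus vehicle and -0.243 to -0.0168 for BRQ minus NTB. BRQ minus vehicle was positive without vehicle replicate 1 (0.108), BRQ replicate 2 (0.0152) or BRQ replicate 3 (0.0383). With the pool as a replicate block the differences were -0.156, -0.0097 and -0.166 (exact sign-flip p = 0.25, 1 and 0.25, smallest possible 0.25).

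Between groups, with no count filter (13061 genes), 44, 67 and 11 genes were called for vehicle against NTB, BRQ against vehicle and BRQ against NTB. Leaving out 1 mouse gave 0 to 94, 0 to 160 and 0 to 0 calls, the highest without vehicle replicate 1. The replicate block called 0 in each, with 128, 130 and 90 genes at an unadjusted p under 0.05. Tag ratios allowed only BRQ against NTB, and the limits read as UMIs or a minimum of 10 members per mouse could not be fitted.

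Against HSC/MPP-gated cells 2933 of 12339 genes were called, 1549 to 2557 when 1 pool was left out (lowest without replicate 1), and 1925 of 7830 on sums per mouse with the replicate block. Against erythroid-gated cells 5454 were called, 3604 to 5053 when 1 pool was left out (lowest without replicate 1), 3455 of 10504 with hashtag singlets only and 2793 of 7830 on sums per mouse with the replicate block. The fits of singlets and of sums per mouse thus tested fewer genes, so their counts are not directly comparable, and those without 1 pool had fewer samples. The cause of these moves was not tested. Of the comparisons' main values under alternatives, 103 stayed within their limits, 10 moved and 8 turned sign. Of the named genes under these alternatives, 0 turned sign and 21 values between groups newly passed the threshold. Each mouse had 1 to 19 members.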
